A study of Mus musculus with 20 samples.

Results

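Glucocorticoids are the adrenal hormones released in stress. Inside the cell they bind the glucocorticoid receptor Nr3c1 and, at lower hormone levels, the mineralocorticoid receptor Nr3c2, which leave a complex of heat shock chaperones, move to the nucleus and bind short palindromic DNA elements near their target genes. A group of genes responds in many tissues within hours, and their transcripts are commonly read as a measure of recent hormone exposure. In this study's region, the bed nucleus of the stria terminalis (BNST), which belongs to the extended amygdala and is made up mainly of GABAergic neurons, glucocorticoid action is studied in connection with anxiety-like behaviour and the hormonal stress response. Described here are 10 such genes, Sgk1, Arrdc2, Tsc22d3, Fkbp5, Zbtb16, Pdk4, Cdkn1a, Errfi1, Ddit4 and Klf9, out of 12988 genes in the count table. They were chosen by name as known glucocorticoid-induced genes, and the choice was made with results of these libraries known: Sgk1, Arrdc2 and Tsc22d3 had been picked out by the comparison of male with female controls, by stress in males and by the difference between the stress effects. The effect of stress in females and the sex difference in stressed mice are parts of that last difference and share its libraries, so they are not independent of the choice either. The members' values are therefore given as a description in all 5 contrasts, without a p-value for each gene, and all 10 genes are reported whatever their values. Calls, counts under a threshold and ranks by p-value belong to that description, and none of them is a test of the members.

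The tissue was the anterodorsal part of the bed nucleus, microdissected from male and female mice. Mice entered the study at 7 to 9 weeks of age, and 15 mice of each sex were kept under control conditions while 15 of each sex went through 6 weeks of chronic variable mild stress, in which minor stressors such as damp bedding, a tilted cage, isolation, swimming or restraint were applied in random order. All mice were killed under ketamine, the stressed ones 1 hour after their last stressor, wet bedding, so these libraries hold the state shortly after a stressor as well as that after weeks of stress. Each library came from the pooled tissue of 3 mice, and there were 5 libraries in each of the 4 groups, female controls, stressed females, male controls and stressed males. Strain and genotype are not given in the sources used here, and no sample carries a transgene in its labels. Because each library is a pool, the spread between libraries is that between pools and not between single mice. In tissue RNA, fewer cells of a type and less RNA per cell cannot be told apart.

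Library totals ran from 2707881 to 33595388 counts, and the shallowest was female control 4, in which Arrdc2 still had 28 counts, the fewest of any of the 10 genes in any library. The GABAergic markers Gad1 (628 to 757 CPM), Gad2 (983 to 1248 CPM) and Slc32a1 (265 to 342 CPM) were high in every library. CPM are a gene's counts scaled to a common library size, here with TMM factors, and fold changes are log2 values with their standard error (SE) from a single edgeR quasi-likelihood fit over all 12988 genes, with Benjamini-Hochberg adjusted p-values over all of them. A gene is called where the adjusted p is under 0.05. The 4 comparisons and the interaction share groups of libraries, so that the male controls enter both the stress comparison in males and the sex comparison in controls, and the female controls enter the stress comparison in females and the same sex comparison. High values in the male controls, or low values in the female controls, move both comparisons they enter.

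The sequence just upstream of the annotated starts was searched for the receptor's element, since the receptor is recruited to its targets through such elements, near a start or far from it. The palindrome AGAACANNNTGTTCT, searched on both strands in the 250 bases before each start, lay in 3 of 32851 windows of RefSeq's mouse annotation (0.00913%), and 1 of these 3 was a window of Sgk1. A looser palindrome, GNACANNNTGTNC, which takes in the same match, lay in 127 windows (0.387%), and among the 18 windows of 9 members only the same Sgk1 window held it. The element's single arm, AGAACA or TGTTCT, lay in 5284 windows (16.1%), and in 4 windows of the members, 3 of them of Sgk1 (which has 6 annotated starts) and 1 of Tsc22d3 (which has 3). The window of Arrdc2 held none of these letters. These windows of the 3 lead genes are printed 5′ to 3′ on the gene's strand, in build GRCm38.p6, with the arms and the full palindrome in capitals. The palindrome of Sgk1 began 189 bases before the start at 21993890, which lies inside the gene's span, after its first annotated start, and the window overlaps no GENCODE exon. That of Tsc22d3 is shown as the 113 bases that precede an exon annotated by GENCODE, and that of Arrdc2 whole.
Sgk1, chr10:21993640-21993889, plus strand: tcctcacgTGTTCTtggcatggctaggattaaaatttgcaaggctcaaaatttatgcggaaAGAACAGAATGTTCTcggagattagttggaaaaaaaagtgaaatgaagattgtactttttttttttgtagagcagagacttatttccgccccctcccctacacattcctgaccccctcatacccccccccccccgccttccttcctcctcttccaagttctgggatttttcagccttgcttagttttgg
Tsc22d3, chrX:140600660-140600772, minus strand: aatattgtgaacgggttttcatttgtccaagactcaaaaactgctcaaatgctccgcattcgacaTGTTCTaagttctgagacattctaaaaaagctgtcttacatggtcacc
Arrdc2, chr8:70839721-70839970, minus strand: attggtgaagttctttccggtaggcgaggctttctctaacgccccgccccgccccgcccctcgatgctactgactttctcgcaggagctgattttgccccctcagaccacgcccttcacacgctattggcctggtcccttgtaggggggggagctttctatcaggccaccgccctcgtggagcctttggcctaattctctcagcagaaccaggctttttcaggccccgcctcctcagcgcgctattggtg
A match is a description of these letters, and these libraries hold no measurement of binding. The cyclic AMP response element TGACGTCA, which CREB binds and which is a usual promoter element of activity-induced genes, lay in 508 windows (1.55%), 1 of them of Errfi1. Its arm TGACG or CGTCA lay in 5836 windows (17.8%) and in 1 window each of Errfi1, Klf9, Sgk1 and Tsc22d3.

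Sgk1, Arrdc2 and Tsc22d3 were higher in male controls than in any other group, and in stressed males they lay near the level of the females. Sgk1 (chromosome 10, 21882184 to 21999903) encodes the serum- and glucocorticoid-regulated kinase, which acts on ion channels and transporters. Its level in female controls 1 to 5 was 63.2, 51.6, 51.4, 63.6 and 65.8 CPM (59.1 ± 7.00, SD, n = 5). In male controls 1 to 5 it was 74.1, 127, 117, 112 and 178 CPM (122 ± 37.3). Every male control lay above every female control, and male control 5 held 2.40 times the level of male control 1, so that this group was also the most uneven, with a coefficient of variation of 30.7% against 11.3% to 17.7% in the other groups. Stressed males 1 to 5 had 59.9, 74.8, 75.4, 59.8 and 69.6 CPM (67.9 ± 7.69). Stressed females 1 to 5 had 96.4, 87.0, 64.0, 65.7 and 82.1 CPM (79.0 ± 14.0). Stressed males overlapped male controls only through male control 1, and stressed females overlapped female controls through stressed females 3 and 4. The log2 difference between male and female controls was 1.06 (SE 0.16), and that between stressed and control males was -0.84 (SE 0.16).

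Arrdc2 (chromosome 8, 70835129 to 70839720) encodes an arrestin-domain protein of the family that also holds Txnip. Male controls 1 to 5 had 10.4, 17.2, 14.9, 13.5 and 15.1 CPM (14.2 ± 2.53) and stressed males 8.92, 9.15, 7.54, 8.00 and 9.61 CPM (8.64 ± 0.852). Every stressed male lay below every male control. Female controls had 9.13, 9.39, 8.61, 10.5 and 8.22 CPM (9.18 ± 0.886) and stressed females 10.3, 10.8, 9.72, 9.60 and 10.9 CPM (10.3 ± 0.583). Female control 4, the shallowest library, was the highest female control, just above male control 1, so the control groups overlapped. The log2 difference was -0.71 (SE 0.10) for stress in males and 0.64 (SE 0.11) for sex in controls.

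Tsc22d3 (chromosome X, 140539528 to 140600522) encodes the glucocorticoid-induced leucine zipper, a transcriptional regulator with anti-inflammatory action. Its level in male controls 1 to 5 was 78.6, 106, 87.4, 81.7 and 79.4 CPM (86.6 ± 11.4). Stressed males had 66.1, 66.6, 55.5, 63.8 and 66.7 CPM (63.8 ± 4.75). Female controls had 51.3, 51.8, 59.4, 61.4 and 54.6 CPM (55.7 ± 4.52). Male controls overlapped neither stressed males nor female controls. Stressed females had 81.6, 73.8, 57.2, 52.4 and 66.7 CPM (66.3 ± 11.9) and spanned the range from the female controls to the lower male controls. The log2 difference was 0.64 (SE 0.10) for sex in controls and -0.44 (SE 0.10) for stress in males.

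**Figure D1:**
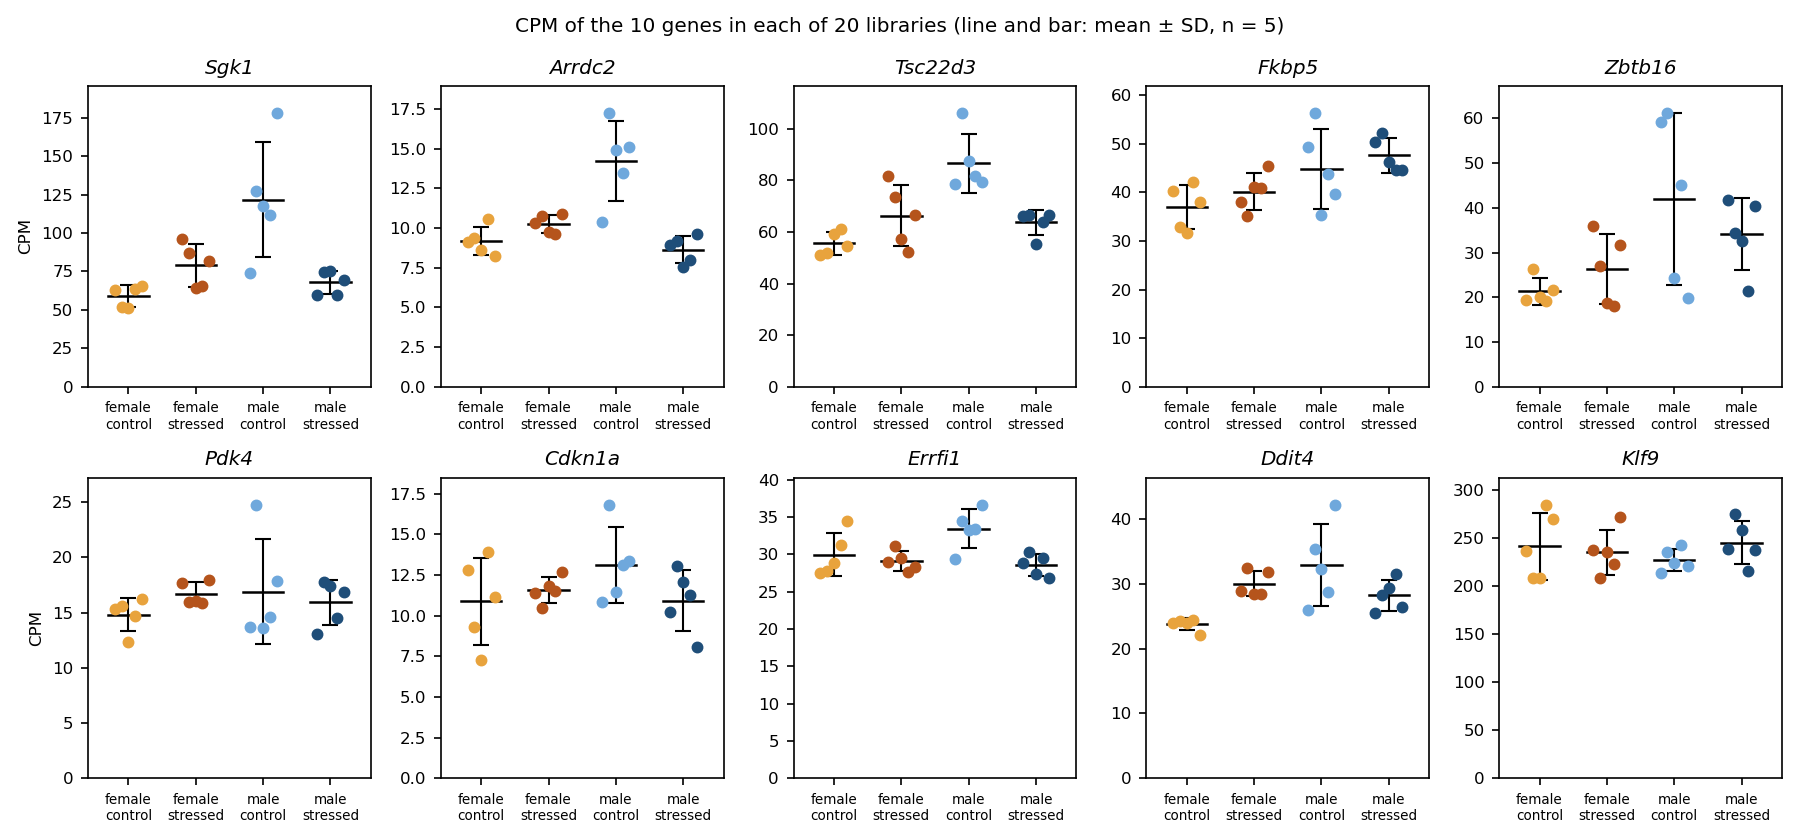
Level in CPM (y axis, from 0) of each of the 10 genes in each library, by group (x axis, n = 5 each). The groups are female control, female stressed, male control and male stressed. Points are libraries and bars the mean ± SD. The male controls stand highest for Sgk1, Arrdc2 and Tsc22d3, while Klf9 shows no such step, with group means from 228 to 245 CPM.

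The inhibitors of growth signalling differed among themselves. Ddit4 (chromosome 10, 59949675 to 59951770) encodes an inhibitor of the mTORC1 kinase that is induced by glucocorticoids and by low oxygen. Female controls 1 to 5 had 23.9, 24.3, 23.9, 24.5 and 22.1 CPM (23.7 ± 0.941), the tightest group of any of the 10 genes, with a coefficient of variation of 3.96%. Stressed females had 28.8, 32.5, 28.4, 28.5 and 31.8 CPM (30.01 ± 1.97). Male controls had 25.9, 35.4, 32.3, 28.8 and 42.2 CPM (32.9 ± 6.30). Both groups lay wholly above the female controls. Stressed males, at 25.6, 28.3, 29.4, 31.6 and 26.4 CPM (28.2 ± 2.40), also lay above them, and overlapped the male controls. Errfi1 (chromosome 4, 150853796 to 150868889), a feedback inhibitor of the epidermal growth factor receptor, was one of the steadiest members, at 29.9 ± 2.92 CPM in female controls, 29.1 ± 1.30 in stressed females, 33.4 ± 2.61 in male controls and 28.6 ± 1.44 in stressed males. Its highest library was 1.36 times its lowest, against 3.46 times for Sgk1. Cdkn1a (chromosome 17, 29090979 to 29100722), which encodes the cell cycle inhibitor p21, had group means of 10.9 ± 2.67, 11.6 ± 0.805, 13.1 ± 2.34 and 10.9 ± 1.90 CPM in the same order, and all 4 groups overlapped.

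Fkbp5, the gene most often used as a marker of glucocorticoid exposure in brain, did not share the fall of Sgk1 with stress in males. It encodes a co-chaperone that lowers the receptor's affinity for hormone and so closes a feedback loop (chromosome 17, 28398753 to 28486149). Female controls 1 to 5 had 40.3, 32.9, 31.6, 42.2 and 38.0 CPM (37.0 ± 4.59) and stressed females 38.1, 35.2, 41.0, 40.9 and 45.5 CPM (40.1 ± 3.84). Male controls had 49.3, 56.2, 35.3, 43.7 and 39.7 CPM (44.8 ± 8.18) and stressed males 50.3, 52.3, 46.2, 44.5 and 44.7 CPM (47.6 ± 3.52). Its highest group mean was that of the stressed males, and male control 5, the highest library for Sgk1, was among the lower male controls. Pdk4 (chromosome 6, 5483351 to 5496278), a kinase that shuts off pyruvate dehydrogenase and shifts cells from glucose to fat, had group means of 14.8 ± 1.49, 16.7 ± 1.02, 16.9 ± 4.72 and 15.9 ± 2.04 CPM in female controls, stressed females, male controls and stressed males. In the male controls 1 library, male control 2, stood at 24.8 CPM and the other 4 between 13.6 and 17.9 CPM.

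The transcription factors were the extremes of the group. Zbtb16 (chromosome 9, 48651797 to 48836225), a zinc finger repressor also known as PLZF, was the most uneven. Its level was 59.1, 61.1, 24.3, 45.1 and 19.8 CPM in male controls 1 to 5 (41.9 ± 19.2), a coefficient of variation of 45.9%. Female controls had 19.4, 26.3, 19.98, 19.2 and 21.6 CPM (21.3 ± 2.93). The male controls thus held both its highest library and libraries within the range of the female controls, among them male control 5, which was the highest of all for Sgk1. Stressed males had 41.8, 34.4, 32.5, 21.4 and 40.4 CPM (34.1 ± 8.11) and stressed females 35.8, 27.1, 18.7, 18.1 and 31.7 CPM (26.3 ± 7.84). Klf9 (chromosome 19, 23141226 to 23168129), a Krüppel-like repressor that is induced by both glucocorticoid and thyroid hormone, had the highest level and group means that lay close together, at 242 ± 35.1, 235 ± 23.6, 228 ± 11.3 and 245 ± 22.5 CPM. Its highest library was female control 4, at 285 CPM.

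Set side by side, the male controls held the highest of the 20 libraries for 9 of the 10 genes and the highest group mean for 8, Fkbp5 and Klf9 being the exceptions in group mean and Klf9 in library. The highest library was male control 2 for 6 genes, Arrdc2, Tsc22d3, Fkbp5, Zbtb16, Pdk4 and Cdkn1a, and male control 5 for Sgk1, Errfi1 and Ddit4. The lowest group mean was that of the female controls for 7 genes. Per kilobase of exon, which allows levels of different genes to be compared, Klf9 was highest at 49.3 ± 4.90 CPM per kilobase (SD over the 20 libraries). Sgk1 (16.7 ± 6.33), Ddit4 (16.4 ± 2.68) and Tsc22d3 (15.7 ± 3.28) followed and did not differ from each other beyond their spread. Errfi1 (8.45 ± 0.779) came next, then Zbtb16 (5.85 ± 2.47), whose spread reached that of Errfi1, and Pdk4 (4.58 ± 0.752) and Fkbp5 (4.48 ± 0.684), both within the spread of Zbtb16. Cdkn1a (3.27 ± 0.590) and Arrdc2 (3.27 ± 0.803) were lowest on this scale. Arrdc2 was thus among the least abundant of the group, and Klf9, the most abundant, had the smallest ratio of its highest to its lowest group mean.

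**Figure D2:**
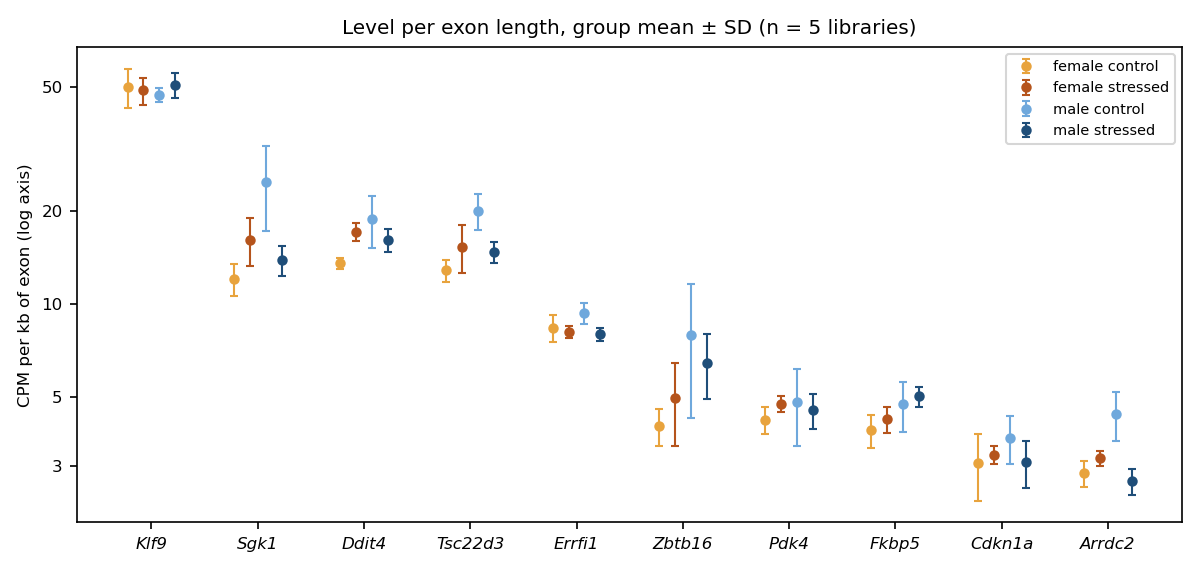
Level of each gene in CPM per kilobase of exon (y axis, log scale), as the mean ± SD of each group (coloured; n = 5 libraries). Klf9 is highest, with a mean of 49.3 over all libraries, and Cdkn1a and Arrdc2 are lowest, each with a mean of 3.27.

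With stress in females 8 of the 10 members had a positive log2 difference, with a median of 0.18 against -0.001 over all 12988 genes. The female controls had entered the choice as the lower group, so a positive direction here is not independent of it. None of the 10 was called by edgeR's quasi-likelihood test, where 0% of all genes were called. At an unadjusted p under 0.05 there were 3 members, all higher (3.69% of all genes were higher at that level). DESeq2 and limma-voom called 0 as well. Ddit4 differed by 0.34 (SE 0.10) and was higher in 5 of 5 stressed females than in any female control. It was the 1 member whose groups did not overlap, against 1.22% of all genes. Sgk1 differed by 0.43 (SE 0.16), Tsc22d3 by 0.26 (SE 0.10), Arrdc2 by 0.19 (SE 0.11) and Fkbp5 by 0.14 (SE 0.10). Zbtb16 (0.28), Pdk4 (0.17) and Cdkn1a (0.14) were positive, with SE of 0.27, 0.13 and 0.15. When any 1 library was left out, Zbtb16 ran from 0.17 to 0.38, Pdk4 from 0.10 to 0.20 and Cdkn1a from 0.018 to 0.26. Errfi1 (-0.02, SE 0.07) and Klf9 (-0.03, SE 0.08) were smaller than their errors.

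In males the direction was the opposite for most members. The median log2 difference between stressed and control males was -0.25 against -0.007 over all genes, and 2 of 10 values were positive, Fkbp5 (0.08, SE 0.10) and Klf9 (0.11, SE 0.08). Of the 10 members 1 was called, Arrdc2, which was lower, where 0.0077% of all genes, Arrdc2 alone, were called. Since this contrast took part in the choice of the lead genes, nothing is read from that count. At an unadjusted p under 0.05 there were 5 members, all lower (6.76% of all genes). Arrdc2 and Tsc22d3 were the members whose groups did not overlap, against 1.16% of all genes lower in that way. Sgk1, at -0.84 (SE 0.16), had the lowest value of the 10, and its groups overlapped through male control 1. The remaining members were Zbtb16 at -0.30 (SE 0.25), Cdkn1a at -0.26 (SE 0.14), Errfi1 at -0.23 (SE 0.07), Ddit4 at -0.22 (SE 0.10) and Pdk4 at -0.06 (SE 0.12). The call of Arrdc2 was lost without stressed male 3 or without stressed male 4, while its value stayed between -0.81 and -0.65 when any 1 library was left out. Sgk1 and Tsc22d3 passed as well without stressed male 5, and Sgk1 without male control 1. Those 2 fits called 129 and 3 of all genes, against 1 in the main fit.

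Between male and female controls 9 of 10 differences were positive, with a median of 0.40 against 0.000 over all genes. Sgk1, Arrdc2, Tsc22d3 and Ddit4 (0.48, SE 0.10) were called higher in males, 4 of 10 members, where 0.747% of all genes were called in either direction and 0.416% higher. At an unadjusted p under 0.05 there were 8, all higher (7.08% of all genes). Sgk1, Tsc22d3 and Ddit4 had groups that did not overlap, with 1.95% of all genes higher in that way. As this contrast also took part in the choice, these counts are a description. Zbtb16 differed by 0.94 (SE 0.27), close in size to Sgk1, but with the male controls spread over 3.09-fold it was not called. It was called at 1.15 without male control 5, where 119 of all genes were called. Ddit4 lost its call without female control 1, female control 5, male control 2 or male control 3, with values of 0.45 to 0.48, and with limma-voom, at 0.46. The fits in which Ddit4 lost its call here called 32 to 63 of all genes, against 97 in the main fit. Fkbp5 (0.29, SE 0.10), Cdkn1a (0.31, SE 0.15), Errfi1 (0.18, SE 0.07) and Pdk4 (0.17, SE 0.13) were positive and not called, and Klf9 was at -0.08 (SE 0.09).

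Between stressed males and stressed females the median over the members was -0.06 against 0.000 over all genes, and 3 of 10 were positive. None was called by edgeR, where 0.077% of all genes were, and 2 had an unadjusted p under 0.05 (7.06% of all genes), Arrdc2 lower in males (-0.26, SE 0.10) and Fkbp5 higher (0.24, SE 0.10). DESeq2 and limma-voom also called 0, and no member had groups that did not overlap (1.27% of all genes). Sgk1 was at -0.21 (SE 0.16), Tsc22d3 at -0.06 (SE 0.10), Ddit4 at -0.09 (SE 0.09) and Zbtb16 at 0.36 (SE 0.26).

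**Figure D3:**
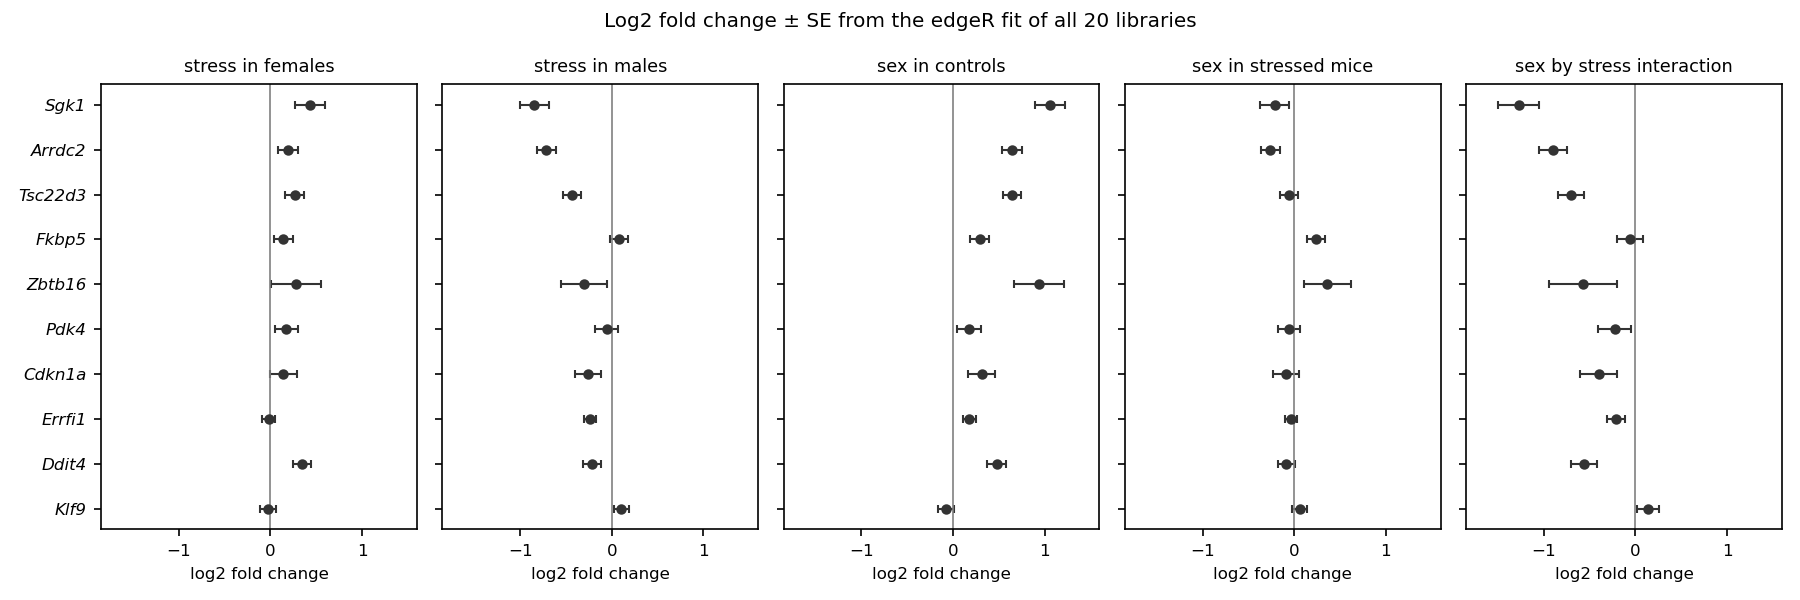
Log2 difference (x axis) with its SE for each of the 10 genes in the 4 pairwise comparisons and the interaction (male stress effect minus female stress effect). Sgk1, Arrdc2 and Tsc22d3 are positive for sex in controls (1.06, 0.64 and 0.64) and negative for stress in males (-0.84, -0.71 and -0.44).

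The difference between the stress effects, taken as the male effect minus the female effect, was negative for 9 of 10 members, with a median of -0.48 against 0.003 over all genes. It was -1.27 (SE 0.23) for Sgk1, -0.90 (SE 0.15) for Arrdc2, -0.70 (SE 0.14) for Tsc22d3 and -0.56 (SE 0.14) for Ddit4. By p-value the first 3 ranked 2nd, 1st and 7th of 12988 genes, a description, since this contrast served in the choice. None was called by edgeR, where 0% of all genes were, and 5 members were lower at an unadjusted p under 0.05 (5.03% of all genes). DESeq2 called 3 members, with 22 of all genes called, and limma-voom 0. Leaving out 1 library gave 1 call without female control 2, 2 without male control 1 and 3 without stressed female 4. Each of those fits called 4 of all genes. Zbtb16 (-0.58, SE 0.37), Cdkn1a (-0.40, SE 0.21), Pdk4 (-0.23, SE 0.18) and Errfi1 (-0.21, SE 0.10) were smaller relative to their errors. Fkbp5 (-0.06, SE 0.14) and Klf9 (0.14, SE 0.12) were near 0.

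The members' close relatives were read for comparison, since they share sequence and function but are not all hormone targets. Of 19 paralogs 18 were in the table, among them Sgk3, Arrdc3, Txnip, Tsc22d1, Fkbp4, Pdk2, Cdkn1b and Klf13, and none was called in any of the 5 contrasts, with medians from -0.05 to 0.06. At an unadjusted p under 0.05 the count was 1 for stress in females (7.51% of all genes) and 4 for stress in males (15.5%). It was 7 between the sexes in controls (15.3%) and 0 between the sexes under stress (7.06%), and 4 for the interaction (10.4%). Txnip, the arrestin-domain relative of Arrdc2, had the smallest p for sex in controls, at 0.39 (SE 0.10, adjusted p = 0.0741). Ddit4l, the relative of Ddit4, went the other way from it in males under stress, at 0.63 (SE 0.17, adjusted p = 0.102). Other tools and model settings called up to 2 paralogs in males and up to 1 in controls. The 2 in males came from the compared groups alone, where 303 of all genes were called. The settings that called 1 in controls called 75 to 316 of all genes.

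A second list held 24 other genes known as glucocorticoid targets, of which 22 were in the table. In controls 3 of the 22 were called, all higher in males, where 0.416% of all genes were: Bcl6, a zinc finger repressor, at 0.45 (SE 0.08, adjusted p = 0.00609), Plekhf1, which encodes an endosomal lipid-binding protein, at 1.09 (SE 0.21, adjusted p = 0.0129), and Klf15, a Krüppel-like factor of metabolic genes, at 0.27 (SE 0.06, adjusted p = 0.0475). Over the list 16 of 22 were positive with a median of 0.19. Plekhf1, like Sgk1, was highest in male controls, with 2.66 ± 0.396 CPM in female controls, 3.89 ± 0.677 in stressed females, 5.37 ± 1.71 in male controls and 3.68 ± 0.680 in stressed males, though its level was low, with 8 counts in its lowest library. In stressed females 18 of 22 were positive with a median of 0.15, and none was called. The smallest p was that of Per1, a clock gene with a receptor element, at 0.46 (SE 0.11, adjusted p = 0.389), and 8 genes were higher at an unadjusted p under 0.05 (3.69% of all genes). In males under stress none was called, 7 of 22 were positive and the median was -0.05. At an unadjusted p under 0.05 there were 5 lower (6.76% of all genes) and 1 higher (8.71%), with the smallest p for Gpd1 (0.50, SE 0.14, adjusted p = 0.106), which was higher. Between stressed males and females none was called and the median was -0.07. For the interaction none was called, 3 of 22 were positive and the median was -0.23, with 10 lower at an unadjusted p under 0.05 (5.03% of all genes) and the smallest p for Plekhf1 (-1.24, SE 0.28, adjusted p = 0.195). The list was drawn up with earlier results of these libraries known, so neither its direction nor its calls are independent of the members. Its counts and adjusted p-values are a description, and give no separate support to the members' pattern.

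**Figure D4:**
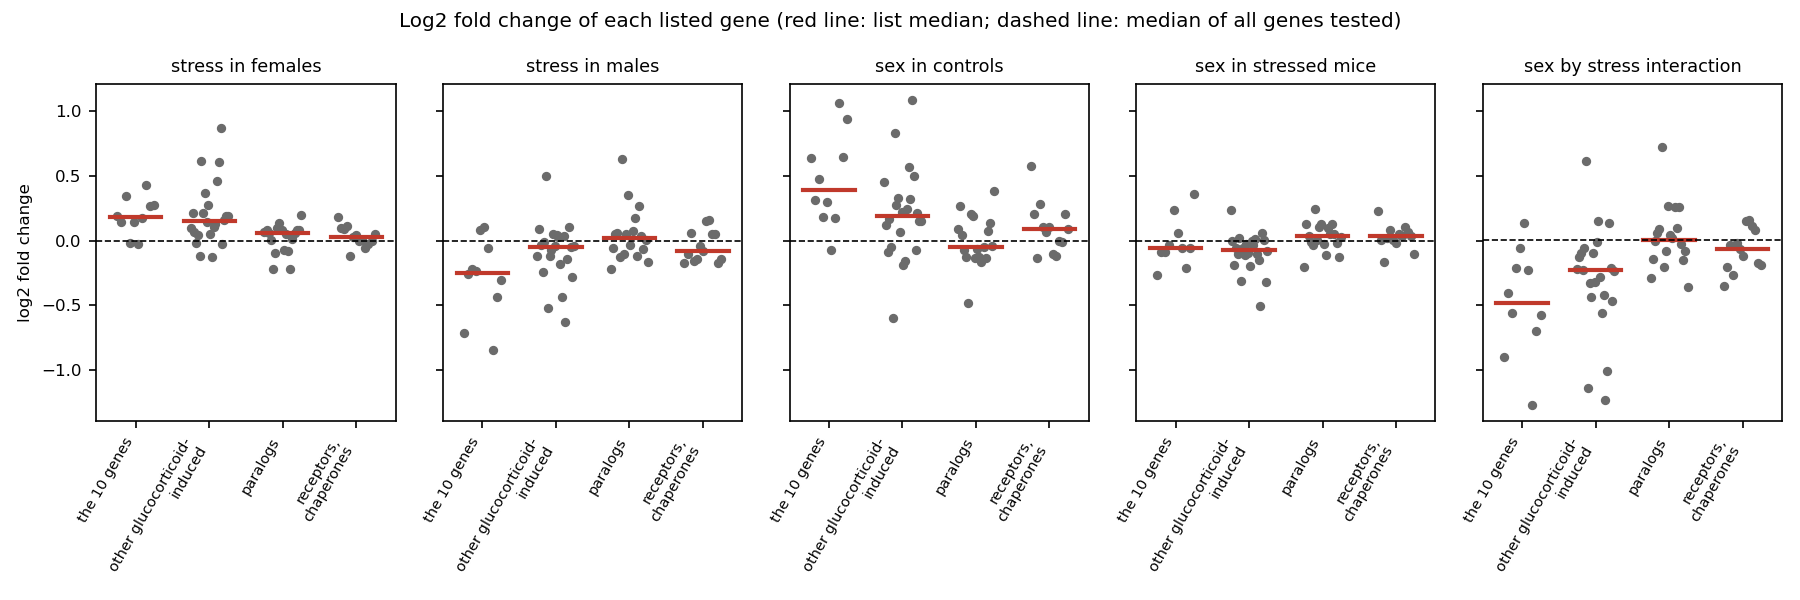
Log2 differences (y axis) of the genes of the 4 lists, the 10 members, the other glucocorticoid-induced genes, the paralogs and the receptor and chaperone genes, in each of the 5 contrasts, with a red line at each list's median and a dashed line at the median of all genes. The medians of the members and of the other induced genes lie above 0 for sex in controls (0.40 and 0.19) and below 0 for the interaction (-0.48 and -0.23), while those of the paralogs stay between -0.05 and 0.06.

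The receptors themselves were not called in any contrast. Nr3c1 had group means of 153, 147, 152 and 158 CPM and Nr3c2 57.1, 56.6, 57.3 and 59.6 CPM in female controls, stressed females, male controls and stressed males. For sex in controls their log2 differences were 0.00 (SE 0.05, adjusted p = 0.992) and -0.01 (SE 0.06, adjusted p = 0.967), and for stress in males 0.05 (SE 0.05, adjusted p = 0.651) and 0.05 (SE 0.06, adjusted p = 0.742). Of the 13 receptor, chaperone, coactivator and hormone-activating genes in the table (14 listed) 1 was called in 1 contrast. Dnajb1, an Hsp40 chaperone induced by heat shock, was higher in male than in female controls (70.7 ± 8.41 against 47.1 ± 2.67 CPM, log2 difference 0.58, SE 0.09, adjusted p = 0.00269). Fkbp4, the counterpart of Fkbp5 that favours receptor transport, was at 0.21 (SE 0.08, adjusted p = 0.226) in the same contrast.

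Over all 20 libraries, group differences included, the genes most like Sgk1 by Pearson's r of log2 CPM were Plekhf1 (0.908), Arrdc2 (0.845), Trib1 (0.820), Ddit4 (0.813) and F3 (0.800), out of 12987. Tsc22d3 came 6th (0.785) and Errfi1 17th (0.713). Fkbp5, with r = 0.179, ranked 3418th, and Klf9, with r = -0.002, 6854th. For Arrdc2 the nearest were Sgk1, Tsc22d3 (0.812), Polr3e (0.804), Arid5b (0.784) and Trib1 (0.777). Tsc22d3 was nearest to Dpysl2 (0.845), Farsb (0.834), Arrdc2, Bag2 (0.796) and Adipor2 (0.791). These values are a description of 20 libraries that share their depth and dissection, and they carry no test.

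Within the groups, where the group differences are removed, the relation of the other 9 members to Sgk1 was looser. Pearson's r of the deviations from the group means was positive for 7 of 9 and highest for Ddit4 (0.687, permutation p = 0.0236 within groups, adjusted over the 9 relations p = 0.106). It was 0.585 for Errfi1 (permutation p = 0.0158, adjusted p = 0.106), 0.582 for Arrdc2 (permutation p = 0.064, adjusted p = 0.139) and 0.358 for Tsc22d3 (permutation p = 0.186, adjusted p = 0.239). None of the 9 passed by Pearson's r. By Spearman's rho 1 of 9 passed, Pdk4 (rho = 0.681, permutation p = 0.00116, adjusted p = 0.0104, with r = 0.548 and its adjusted permutation p = 0.157). The adjustment covered the 9 relations of each measure and not both measures together. No share of all genes related to Sgk1 this closely within groups is given here, so the count cannot be called particular to the members. The rho of Ddit4 was 0.414, that of Errfi1 0.517, that of Arrdc2 0.370 and that of Tsc22d3 0.355. Without male controls 1 and 5, the libraries farthest from the median of Sgk1's deviations, r was 0.206 for Ddit4, 0.298 for Errfi1 and 0.297 for Arrdc2. It was 0.520 for Pdk4 and 0.556 for Tsc22d3. Removing the extreme libraries of Sgk1 narrows its range, so a lower r cannot by itself show that a relation rested on them. Fkbp5 (r = -0.099) and Zbtb16 (r = -0.219) were the negative ones, and turned to 0.228 and 0.443 without the same pair of libraries.

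**Figure D5:**
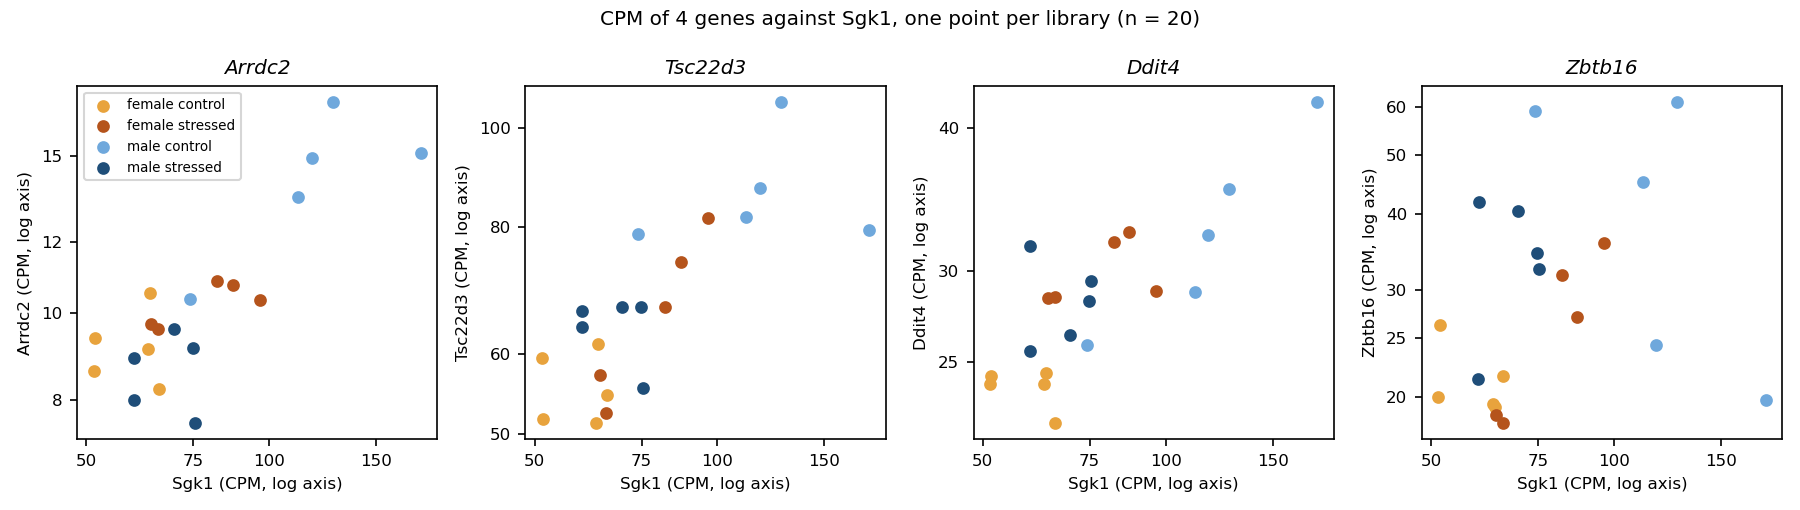
Level of Arrdc2, Tsc22d3, Ddit4 and Zbtb16 (y axis, CPM on a log scale) against that of Sgk1 (x axis, CPM on a log scale) in the 20 libraries, coloured by group. Arrdc2 (r = 0.845 over all libraries), Ddit4 (0.813) and Tsc22d3 (0.785) follow Sgk1, with most male controls at the upper right, while the Zbtb16 level of male control 5, the library highest for Sgk1, is 19.8 CPM.

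Marker genes of the region's neurons and of other cells moved with some of these contrasts. Of the 10 GABAergic neuron markers 8 were positive between male and female controls, with a median of 0.10, and 1 was called, the neuropeptide gene Tac2 (0.84, edgeR adjusted p = 0.0306). In males under stress 2 of 10 were positive, with a median of -0.23 and 5 lower at an unadjusted p under 0.05 (6.76% of all genes), none of them called. The stress peptide gene Crh was 16.6 ± 1.24 CPM in female controls, 17.4 ± 4.25 in stressed females, 24.4 ± 1.096 in male controls and 17.7 ± 3.18 in stressed males. The part of this list in the members' values was not tested. The summed level of 8 striatal medium spiny neuron markers, all in the table, ran from 1743 to 3246 CPM in control females, from 1681 to 3590 under stress, from 1596 to 2036 in control males and from 2302 to 3697 in males under stress, so that the male controls lay wholly below the stressed males. With stress in males 8 of 8 were positive (median 0.66), all 8 at an unadjusted p under 0.05 (8.71% of all genes were higher). Between male and female controls 0 of 8 were positive (median -0.60), with 7 lower at that level (1061 of all 12988 genes were lower). With stress in females 4 of 8 were positive (median 0.02), and no striatal marker was called in these 3 contrasts. With this list's score as a covariate the log2 difference between male and female controls was 1.12 for Sgk1, 0.63 for Arrdc2 and 0.54 for Tsc22d3, all still called, while Ddit4 (0.48) was not and Fkbp5 (0.47) and Cdkn1a (0.60) were. In males under stress Arrdc2 was at -0.71 with and without that covariate and was not called with it. Sgk1 went from -0.84 to -0.91 with it, Tsc22d3 from -0.44 to -0.31, Cdkn1a from -0.26 to -0.60 and Pdk4 from -0.06 to -0.25. The signs of Fkbp5 and Klf9 turned, to -0.13 and -0.094. The oligodendrocyte list, all 10 of 10 measured, summed to 9076 to 13091, 8560 to 10505, 8304 to 12875 and 7299 to 11327 CPM in female controls, stressed females, male controls and stressed males. In females under stress 0 of its 10 genes were positive, with a median of -0.22 and 5 lower at an unadjusted p under 0.05 (3.83% of all genes), and in males the median was -0.005. With its score as a covariate the stress difference in females was 0.50 for Sgk1, 0.38 for Ddit4 and 0.13 for Zbtb16, against 0.28 without it for the last. In males it was -0.81 for Sgk1 and -0.70 for Arrdc2. Astrocyte markers summed to 4465 to 4619 CPM in male controls and 4718 to 5282 in female controls, a sum carried by Slc1a2 (2897 and 3286 CPM on average), while Gja1 was 286 and 272 CPM and 2 of 8 genes were positive with a median of -0.04. Microglial markers summed to 347 to 428 CPM in male and 393 to 450 in female controls, and endothelial and pericyte markers to 342 to 386 and 372 to 422 CPM. Between these controls 0 of 8 microglial genes were positive (median -0.22). At an unadjusted p under 0.05 there were 5 lower, as were 1061 of all 12988 genes. Of the 10 endothelial and pericyte genes 1 was positive (median -0.14), with 5 lower at that level (1061 of all 12988 genes). The endothelial Cldn5 was called lower in male than in female controls (-0.44, edgeR adjusted p = 0.0122). Thalamic markers were highest in stressed female 2, at 281 CPM of a range from 130 CPM. Of 5 choroid plexus markers 2 were in the table. The part of the astrocyte, microglial, vascular and thalamic lists in the members' values was not tested.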

How the data were processed

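RNA from 20 pools of microdissected tissue was sequenced from stranded mRNA libraries. The authors deposited a table of raw counts per gene, and STAR, featureCounts and build mm10 are named in the submitters' processing notes, while versions, annotation and strand setting are not given in the sources used here. If strand was not used in counting, reads of overlapping antisense genes cannot be told apart. The table holds 12988 genes, each with at least 1002 counts over all libraries, so a filter on low values had already been met, and all 10 members were in it. All 12988 genes passed edgeR's filterByExpr. Libraries of 1 group differed by more than sampling noise (chi-square over its degrees of freedom 1.88 to 39.4), and none was a duplicate.

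From the counts, edgeR 4.0.16 (R 4.3.3) fitted the 4 group means of all 20 libraries in 1 quasi-likelihood model on TMM-scaled library sizes, with p-values adjusted by Benjamini-Hochberg over all 12988 genes. The biological coefficient of variation was 8.83%. On simulated counts the fit called 177 of 200 genes changed 1.5-fold for stress in males (186 calls in all), 180 for sex in stressed mice (191 calls) and 135 for the interaction (144 calls), and 0 in the contrasts left unchanged. Genes were simulated independently of each other, without shifts in tissue composition. These shares thus check the fit and do not give its power in the real libraries. Log2 CPM used a prior count of 2. Correlations within groups used 100000 permutations of the libraries within groups, two-sided. Alternatives were DESeq2 1.42.0, limma-voom (limma 3.58.1), DESeq2's size factors, no filter, a mean of at least 10 CPM, the compared groups alone, a replicate block, covariates for striatal and oligodendrocyte markers, and leaving out each library. Replicate numbers did not pair libraries across groups. Genes are taken to be as named in the table, and sequences and gene positions are RefSeq's for GRCm38.p6, the assembly behind mm10. Exon lengths are from GENCODE M21.

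The members and all lists were chosen with earlier results of these data known. The text names every member, the 5 genes of highest r with Sgk1, Arrdc2 and Tsc22d3, genes called or of smallest p in the lists (paralogs, other glucocorticoid-induced genes, receptor and chaperone genes, immediate early genes, clock output genes) and markers of GABAergic, striatal, thalamic, oligodendrocyte, astrocyte, microglial, endothelial and choroid plexus cells. From the immediate early and clock output lists, the gene with the smallest adjusted p over the 5 contrasts is named. Nr3c1, Nr3c2 and Fkbp4 are named in addition for their place in the pathway. Crh, Gja1 and Slc1a2 were singled out of the marker lists after their values were seen.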

Additional observations from a re-analysis of the deposited data

Results flagged for a closer look

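Among the 40 sets of 5 libraries (10 genes in 4 groups), 2 held a library that stood apart from its group by Dixon's test at the 95% level, where chance gives about 1 in 20. Tsc22d3 was 55.5 CPM in stressed male 3, with the other stressed males at 63.8 to 66.7 CPM. Ddit4 was 22.1 CPM in female control 5, with the other female controls at 23.9 to 24.5 CPM.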

How the results depend on the processing

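Of the members' 1040 log2 differences under other settings, 990 kept their direction and their side of the threshold, 26 passed it, 10 no longer did and 14 changed sign. Among the 990 are those of the fit with no filter, which could not differ from the main fit, as all genes passed filterByExpr. For stress in females and for sex in stressed mice no setting called a member. The members called in the interaction were 2 with DESeq2's size factors, 3 with DESeq2, 2 at a mean of at least 10 CPM, 3 with the oligodendrocyte covariate and 0 to 3 without 1 library. Over all genes these settings called 3, 22, 3 and 13, and 0 to 4 without 1 library, against 0 in the main fit. In males the members called were 3 with DESeq2, 3 with the compared groups alone and 0 with the striatal covariate. Without 1 library they were 0 to 3 in males. Over all genes these settings called 217, 303 and 1 in males, and 0 to 129 without 1 library, against 1 in the main fit. In controls the members called were 3 to 5, in fits that called 32 to 316 of all genes. Paralogs called in males were 1 with DESeq2 and 2 with the compared groups alone, and in controls 1 with each of DESeq2, the compared groups alone and either covariate. Other glucocorticoid-induced genes called in males were 1 with DESeq2. In controls they were 7 with DESeq2, 6 with the compared groups alone, 7 with the oligodendrocyte covariate and 2 to 4 without 1 library. Over all genes these settings called 248, 304 and 316 in controls, and 32 to 214 without 1 library, against 97 in the main fit. The striatal covariate called 75 of all genes in controls. In females 1 gene of this list was called with the striatal covariate, where 3 of all genes were. In the interaction 1 was called with DESeq2 and with either covariate, and 0 to 1 without 1 library. The striatal covariate called 1 of all genes there.

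The sign changes were of small values. Errfi1 in females was 0.0038 with limma-voom, 0.035 with the oligodendrocyte covariate and -0.054 to 0.036 without 1 library (positive without female control 5). Klf9 in females was -0.087 to 0.030 without 1 library (positive without female control 4, female control 5 or stressed female 2). With the striatal covariate Fkbp5 in males was -0.13, and Klf9 was -0.094 in males, 0.10 in controls and -0.069 in the interaction. Leaving out 1 library, Pdk4 in males was -0.12 to 0.082 and Fkbp5 in the interaction -0.12 to 0.023 (both positive without male control 2). In stressed mice Tsc22d3 was -0.13 to 0.019 (positive without stressed female 1) and Cdkn1a -0.15 to 0.015 (positive without stressed male 5). The within-group r with Sgk1 was 0.464 to 0.687 for Pdk4 (passing without male control 2), 0.400 to 0.658 for Errfi1 and 0.489 to 0.782 for Ddit4 (both passing without stressed male 4). That of Fkbp5 was -0.191 to 0.073 and that of Zbtb16 -0.333 to 0.146, both positive without male control 1 or male control 5. The causes were not tested.

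Same-numbered libraries of different groups did not deviate together (r from -0.473 to 0.237 over 20 pairs, 5 above 0.1), and 0 of 20 libraries correlated best with their own number. When any 1 library was left out, values in males ran from -0.51 to -0.13 for Zbtb16 and -0.29 to -0.088 for Ddit4, and in controls from 0.034 to 0.24 for Pdk4 and 0.19 to 0.44 for Cdkn1a. With a replicate block Ddit4 in controls, at 0.46, was no longer called, and no other call of a member changed. The shallowest library, female control 4, had 2707881 counts, and the next 6825993. With 5 pools in each group, the number of pools limits the precision of every comparison.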

Other observations

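Immediate early genes, the transcripts that follow neuronal activity, were read as a second measure of the recent stressor. Of 12 listed 11 were in the table and none was called by edgeR in any contrast. Their summed level lay between 296 and 670 CPM in female controls, 398 and 731 under stress, 451 and 615 in male controls and 412 and 771 in males under stress, so that the groups overlapped and the range of the male controls lay within that of the stressed males. For sex in controls the smallest p was that of Fosl2 (adjusted p = 0.0631). All 11 were positive in that contrast, with a median of 0.16. With stress 10 of 11 were positive in females (median 0.18), with 0 at an unadjusted p under 0.05. In males 7 of 11 were positive with stress (median 0.12), with 1 lower at that level (6.76% of all genes).

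Clock output genes share Per1 with the glucocorticoid targets, and the labels used here give no hour of dissection. Their summed level lay between 966 and 1102 CPM in female controls, 1088 and 1291 under stress, 1011 and 1093 in male controls and 1113 and 1301 in males under stress. None of 10 was called by edgeR in any contrast. The smallest edgeR adjusted p was that of Hlf with stress in males (adjusted p = 0.0806). In females 10 of 10 were positive with stress (median 0.28, 8 with an unadjusted p under 0.05, where 3.69% of all genes were higher) and in males 9 of 10 (median 0.16, 4 with an unadjusted p under 0.05, where 8.71% were higher), where 8 of the 10 members were negative. Their part in the members' values was not tested.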
